A study of Rattus norvegicus with 26 samples.

Results

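The 6 genes described here are the platelet-derived growth factor (PDGF) ligands *Pdgfa*, *Pdgfb*, *Pdgfc* and *Pdgfd* and the PDGF receptors *Pdgfra* and *Pdgfrb*, chosen by name on the array. They were measured by 7 probes out of 41012 gene probes, and each gene is given by its brightest probe, with the second *Pdgfd* probe as a check. rMAPCs are rat multipotent adult progenitor cells, cultured stem cells from bone marrow that express *Oct4*, and Cl19 and 3c3 are separately isolated lines from female Fischer rats, labelled with the age 3 weeks for Cl19 and embryonic day 18 for 3c3. Undifferentiated cells were harvested on d0, and cells in serum-free basal rMAPC medium with TGF-ß and PDGF-bb on d2, d4 and d6, with 3 arrays per line and day. No arrays were of cells kept for these days without the factors. TGF-ß, PDGF-bb, the medium and time in culture therefore cannot be told apart in any change from d0. RNA of primary smooth muscle cells (primary SMC) was hybridised on 2 arrays, and the labels and the methods name different suppliers of this rat aortic RNA. All 26 arrays carry 1 colour each.

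PDGFs are secreted dimers that signal through receptor tyrosine kinases. PDGF-AA and PDGF-CC act mainly on the α receptor, PDGF-DD on the β receptor, and PDGF-BB, the form added to these cultures, on both. In developing vessels endothelial PDGF-B draws mural cells that carry PDGFRβ, whereas PDGFRα marks primitive endoderm and many mesenchymal progenitors. The probes read RNA of the cells and not the protein added to the medium.

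Values are quantile-normalised log2 intensities, and a probe counts as measured on an array where the scanner software calls it well above background. Levels of different probes are not compared. Both primary SMC arrays measured all 7 smooth muscle markers that have a probe, and every d0 array of both lines measured the 6 markers of undifferentiated rMAPCs. The 4 days of a replicate shared a slide, at the same 4 positions in both lines, so day and position cannot be told apart. Each line and the primary SMC were scanned on a day of their own, so that scan day and line, or scan day and primary SMC, cannot be told apart. The slide of 3c3 replicate 3 had negative control signals of 28.3 to 44.5 against 10.9 to 14.0 elsewhere. The array labelled Cl19 d2 replicate 1 lay nearer to the 3c3 d2 arrays (root mean square distance 0.38 to 0.54) than to the other Cl19 d2 arrays (0.88 and 0.92), and results on Cl19 d2 are given with and without it. The methods call the 3 arrays of a group biological replicates. Neither they nor the labels say whether these were separate cultures, and p-values measure the spread between these samples.

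The sequences of the ligand probes show which part of each transcript was read. All 3 lie in coding sequence. Capitals mark the longest run of letters shared by the *Pdgfa* and *Pdgfb* probes, 8 bases that start at base 40 of the *Pdgfa* probe and at base 3 of the *Pdgfb* probe. The *Pdgfa* probe (rn4 chr12:16160668-16162882, plus strand, spanning an intron) begins with the codons of the basic stretch at which furin-like convertases cut the precursor. The *Pdgfb* probe lies at rn4 chr7:118249590-118249649 on the minus strand, and the *Pdgfd* probe spans an intron at rn4 chr8:3326433-3341113 on the plus strand.
Pdgfa: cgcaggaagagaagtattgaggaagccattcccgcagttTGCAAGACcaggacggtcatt
Pdgfb: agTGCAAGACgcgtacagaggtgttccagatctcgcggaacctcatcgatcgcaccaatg
Pdgfd: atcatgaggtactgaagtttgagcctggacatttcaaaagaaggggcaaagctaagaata
Apart from those 8 bases the *Pdgfa* and *Pdgfb* probes share no run as long. The *Pdgfra* probe lies at rn4 chr14:35369708-35369767 near the 3′ end of the transcript.

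The receptors separated the rMAPC cultures from primary SMC. *Pdgfra*, which encodes the α receptor, was high in undifferentiated rMAPCs and fell in both lines, whereas *Pdgfrb*, which encodes the β receptor, was measured in primary SMC and on none of the 24 rMAPC arrays. In Cl19 *Pdgfra* read 12.26, 12.36 and 12.40 on d0, then 11.45, 11.73 and 11.53 on d2, 10.47, 10.86 and 10.65 on d4, and 10.19, 10.39 and 10.66 on d6. In 3c3 it read 12.28, 12.34 and 12.12 on d0, 11.30, 11.58 and 11.39 on d2, 11.28, 10.84 and 10.86 on d4, and 10.67, 10.25 and 10.51 on d6. The d0 arrays lay above all later arrays in both lines, and the primary SMC arrays, at 9.21 and 9.28, lay below every rMAPC array. The fall from d0 to d6 was 3.80-fold in Cl19 (log2 -1.93, SE 0.16, adjusted p = 6.1e-09) and 3.41-fold in 3c3 (log2 -1.77, SE 0.16, adjusted p = 3.5e-08). Within the slides it was -2.07, -1.97 and -1.74 in Cl19 and -1.61, -2.09 and -1.61 in 3c3, a fall on each of the 6 slides.

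The fall of *Pdgfra* had begun on d2, by 0.77 on the log2 scale in Cl19 (adjusted p = 0.0012) and by 0.82 in 3c3 (adjusted p = 8.2e-04). Without the Cl19 d2 array that stands apart, the Cl19 value was -0.71 (adjusted p = 0.0053). Between d2 and d4 it dropped by a further 0.91 in Cl19 (adjusted p = 4.7e-04, and by 0.97 with an adjusted p of 0.0013 without that array), and the difference of -0.43 in 3c3 did not pass (adjusted p = 0.095). Between d4 and d6 the change passed in 3c3 (log2 -0.52, adjusted p = 0.040), not in Cl19 (log2 -0.24, adjusted p = 0.47). The d6 change in Cl19 minus that in 3c3 was -0.16 with a 95% confidence interval of -0.62 to 0.30 (adjusted p = 0.75). The median change from d0 to d6 over all tested probes was -0.20 in Cl19 and -0.21 in 3c3, so that *Pdgfra* fell well beyond it. In bulk RNA fewer cells with a transcript and less transcript per cell cannot be told apart. The summed log2 level of the 6 undifferentiated rMAPC markers moved with *Pdgfra*, from 71.9 to 72.4 on d0 to 49.9 to 53.8 on d6 in Cl19 and from 73.7 to 74.4 to 65.6 to 66.0 in 3c3. Its members were unequal, since the mean of *Pou5f1*, the gene of Oct4, went from 10.28 to 1.13 in Cl19 and from 11.53 to 7.42 in 3c3, while that of *Foxa2* was higher on d6, at 13.93 against 13.27 in Cl19 and 13.88 against 13.39 in 3c3. The part of these changes in the fall of *Pdgfra* was not tested.

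*Pdgfrb* read 13.77 and 13.71 in primary SMC. On the rMAPC arrays it ranged from 0.29 to 2.71 and was never well above background, on d6 as on d0. In primary SMC it was at least 3477-fold higher than in Cl19 on d6 (adjusted p = 6.2e-20). Against 3c3 on d6 it was at least 1919-fold higher (adjusted p = 7.7e-20). Each bound sets the primary SMC level against the lowest signal well above background on the rMAPC arrays. The p-values are those of the fitted difference, not of the bounds. The probe was tested only because both primary SMC arrays measured it, so these calls are partly set by that filter. The fit calls *Pdgfrb* lower on later days in 3c3, where it read 2.71, 2.10 and 2.02 on d0 and 0.39, 0.63 and 0.51 on d6. None of these values is well above background, so no fold is given. The fibroblast and pericyte markers also separated primary SMC, with 6 of 7 measured on both arrays and a summed log2 level of 73.6 to 73.7, against 37.5 to 43.9 in Cl19 and 19.7 to 25.5 in 3c3 on d6, and their part in the *Pdgfrb* difference was not tested. Of 6 endothelial markers 0 were measured on both arrays of primary SMC. Of 4 blood and macrophage markers 3 were, against 2 on all d6 arrays of either line, and their part was not tested either.

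**Figure D1:**
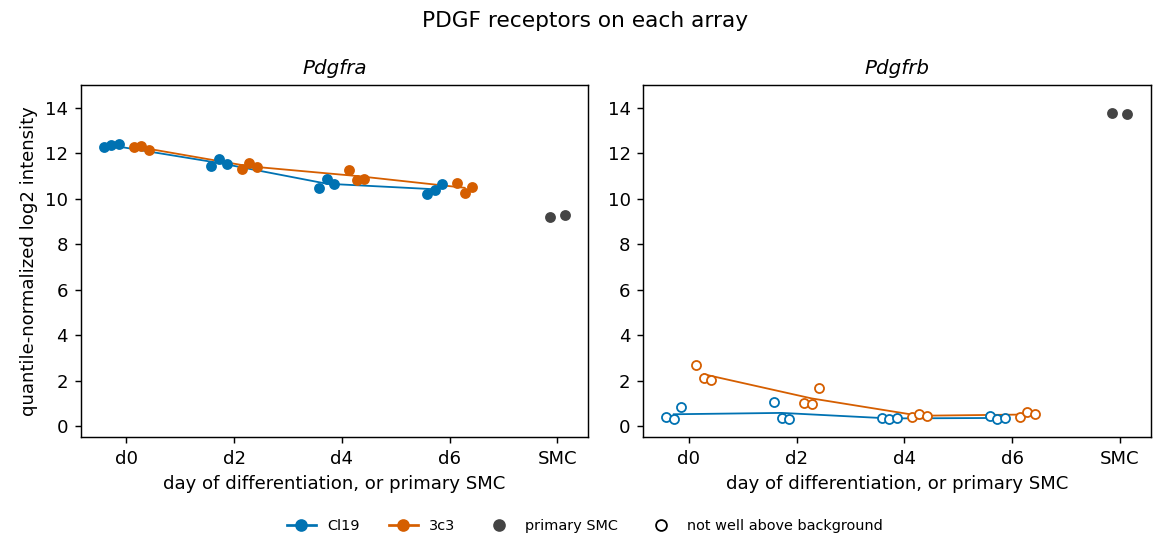
Quantile-normalized log2 intensity (vertical axis) of *Pdgfra* and *Pdgfrb* on each array, by day and line, with primary SMC at the right; lines join group means, and open points are not well above background. *Pdgfra* steps down from d0 to d6 in both lines and is lowest in primary SMC, and *Pdgfrb* has filled points in primary SMC only.

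Of the ligands, *Pdgfa*, which encodes the A chain, rose in both lines and more in Cl19. In Cl19 it read 8.74, 8.46 and 8.75 on d0, 9.36, 9.70 and 10.65 on d2, 11.66, 11.16 and 11.78 on d4, and 11.58, 11.66 and 11.08 on d6. In 3c3 it read 8.99, 8.98 and 9.13 on d0, 9.19, 9.17 and 9.44 on d2, 9.99, 9.50 and 10.12 on d4, and 10.82, 9.42 and 10.26 on d6. All d6 arrays lay above all d0 arrays of their line, and all Cl19 d6 arrays lay above all 3c3 d6 arrays. The rise was 6.90-fold in Cl19 (log2 2.79, SE 0.31, adjusted p = 3.9e-07) and 2.20-fold in 3c3 (log2 1.14, SE 0.31, adjusted p = 0.0053). Within the slides it was 2.83, 3.20 and 2.32 in Cl19 and 1.83, 0.44 and 1.13 in 3c3.

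The difference between the lines in the d6 change of *Pdgfa* was 1.65 on the log2 scale (95% confidence interval 0.73 to 2.57, adjusted p = 0.012). Without the 3c3 slide of higher background it had the same size with an adjusted p of 0.062. On d0 the lines differed by -0.38, which did not pass (adjusted p = 0.91). In Cl19 *Pdgfa* had risen by 1.25 on d2 (adjusted p = 0.0063). Without the array that stands apart this was 1.52 (adjusted p = 0.0019), and without d2 replicate 3 it was 0.88 (adjusted p = 0.057). It rose by a further 1.64 to d4 (adjusted p = 0.0011), or 1.36 without the array that stands apart (adjusted p = 0.011), and its d4 and d6 arrays overlapped. In 3c3 the difference passed on d4 (log2 0.84, adjusted p = 0.041) and not on d2 (log2 0.24, adjusted p = 0.69).

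*Pdgfb*, which encodes the B chain and thus the growth factor that was also added as protein, came up in Cl19. It was not well above background on d0, at 0.45, 0.83 and 0.30, nor on d2 replicate 1, at 0.33, and read 2.95 and 3.13 on the other d2 arrays, 5.44, 5.28 and 5.58 on d4 and 5.75, 5.91 and 5.67 on d6. The d4 and d6 arrays of Cl19 lay above all other arrays of the study. *Pdgfb* was at least 8.32-fold higher on d4 (adjusted p = 6.4e-07) and at least 10.5-fold higher on d6 than on d0 (adjusted p = 1.8e-07). These p-values are those of the fitted difference from dim d0 arrays, not of the bounds. The probe was tested only because all Cl19 arrays of d4 and d6 measured it, so these calls are partly set by that filter. With normexp background correction, which raises dim signals by an offset, the d6 change was 0.91 on the log2 scale (adjusted p = 9.1e-10). The d2 value was called (fitted log2 1.61, adjusted p = 0.042, and 2.51 with an adjusted p of 1.8e-04 without replicate 1), but the call was lost under 11 of 15 alternatives, whose adjusted p ran up to 0.53.

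In 3c3 *Pdgfb* read between 0.31 and 0.38 on all arrays up to d4 and 2.95, 1.04 and 0.46 on d6, and 1 of these 12 arrays, d6 replicate 1, was well above background. The fitted d6 change in 3c3 was 1.14 (adjusted p = 0.098), and it passed without d6 replicate 3 (log2 1.65, adjusted p = 0.026) and in the authors' table (log2 1.76, adjusted p = 0.047). The fitted d6 change was larger in Cl19 by 4.11 (95% confidence interval 2.48 to 5.74, adjusted p = 8.5e-04), a value that rests on dim d0 arrays in both lines and was 0.84 with normexp (adjusted p = 2.3e-06). In primary SMC the *Pdgfb* probe read 3.10 and 2.76, not well above background, and Cl19 on d6 was at least 3.55-fold higher (adjusted p = 4.0e-04). This p-value too is that of the fitted difference, and the call is partly set by the filter. The fibroblast and pericyte markers moved with *Pdgfa* and *Pdgfb* in Cl19, from 17.6 to 19.9 on d0 to 37.5 to 43.9 on d6, when 5 of 7 were well above background on all arrays and the collagen gene *Col3a1* on none. On d2 in Cl19 their sum was 14.4 to 20.2. In 3c3 it went from 17.7 to 19.2 on d0 to 19.7 to 25.5 on d6. The sum of the 7 smooth muscle markers went from 33.9 to 37.0 on d0 to 55.5 to 56.2 on d6 in Cl19 and from 33.6 to 37.6 to 49.7 to 55.004 in 3c3. Its members were unequal, since the mean of *Mylk* went from 1.84 to 1.41 in Cl19 and from 1.03 to 0.84 in 3c3. That of *Myocd* went from 1.88 to 1.92 and from 2.47 to 1.27. Both were mostly not well above background in rMAPCs, and had means of 6.19 and 7.04 in primary SMC. The part of either list in the ligand changes was not tested.

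*Pdgfd*, whose secreted chain carries a CUB domain that proteases must remove before it binds its receptor, went different ways in the lines. In Cl19 it read 5.65, 5.53 and 5.53 on d0, 4.71, 5.06 and 4.89 on d2, 5.90, 4.51 and 5.25 on d4, and 4.09, 4.78 and 3.85 on d6. In 3c3 it read 4.53, 4.99 and 4.78 on d0, 4.80, 4.84 and 4.77 on d2, 5.06, 5.54 and 5.48 on d4, and 5.21, 5.42 and 5.14 on d6. The d6 arrays lay below the d0 arrays in Cl19 and above them in 3c3, without overlap. The fall in Cl19 was 2.52-fold (log2 -1.33, SE 0.27, adjusted p = 3.6e-04), and the 3c3 value of 0.49 did not pass (adjusted p = 0.15), although it did in a fit of the 3c3 arrays alone (adjusted p = 0.037) and in the authors' table without normalisation between arrays (log2 0.89, adjusted p = 0.035).

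The d6 change of *Pdgfd* in Cl19 minus that in 3c3 was -1.82 (95% confidence interval -2.62 to -1.02, adjusted p = 0.0020). With normexp it was -0.57 (adjusted p = 0.0041), and the fall in Cl19 was -0.42 (adjusted p = 9.4e-04). The second *Pdgfd* probe gave -1.27 in Cl19 (adjusted p = 0.0043), 0.75 in 3c3 (adjusted p = 0.081) and a difference of -2.02 (adjusted p = 0.0061). The Cl19 d4 arrays spread over 1.39 on the log2 scale, and the d4 to d6 drop of 0.98 passed with the brighter probe (adjusted p = 0.033) and not with the other (adjusted p = 0.14). The summed level of the 6 endothelial markers went from 28.4 to 30.4 on d0 to 13.9 to 17.7 on d6 in Cl19 and from 25.3 to 25.999 to 25.4 to 26.6 in 3c3. In 3c3 its members went both ways, with the mean of *Pecam1* from 5.82 to 3.71 and that of *Tie1* from 4.80 to 6.35. The undifferentiated rMAPC markers went to 49.9 to 53.8 on d6 in Cl19 and to 65.6 to 66.0 in 3c3. The part of these lists in the *Pdgfd* changes was not tested. *Pdgfc*, which encodes the other ligand with a CUB domain, read between 0.26 and 0.86 and was not well above background on any of the 26 arrays, so it was not tested.

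**Figure D2:**
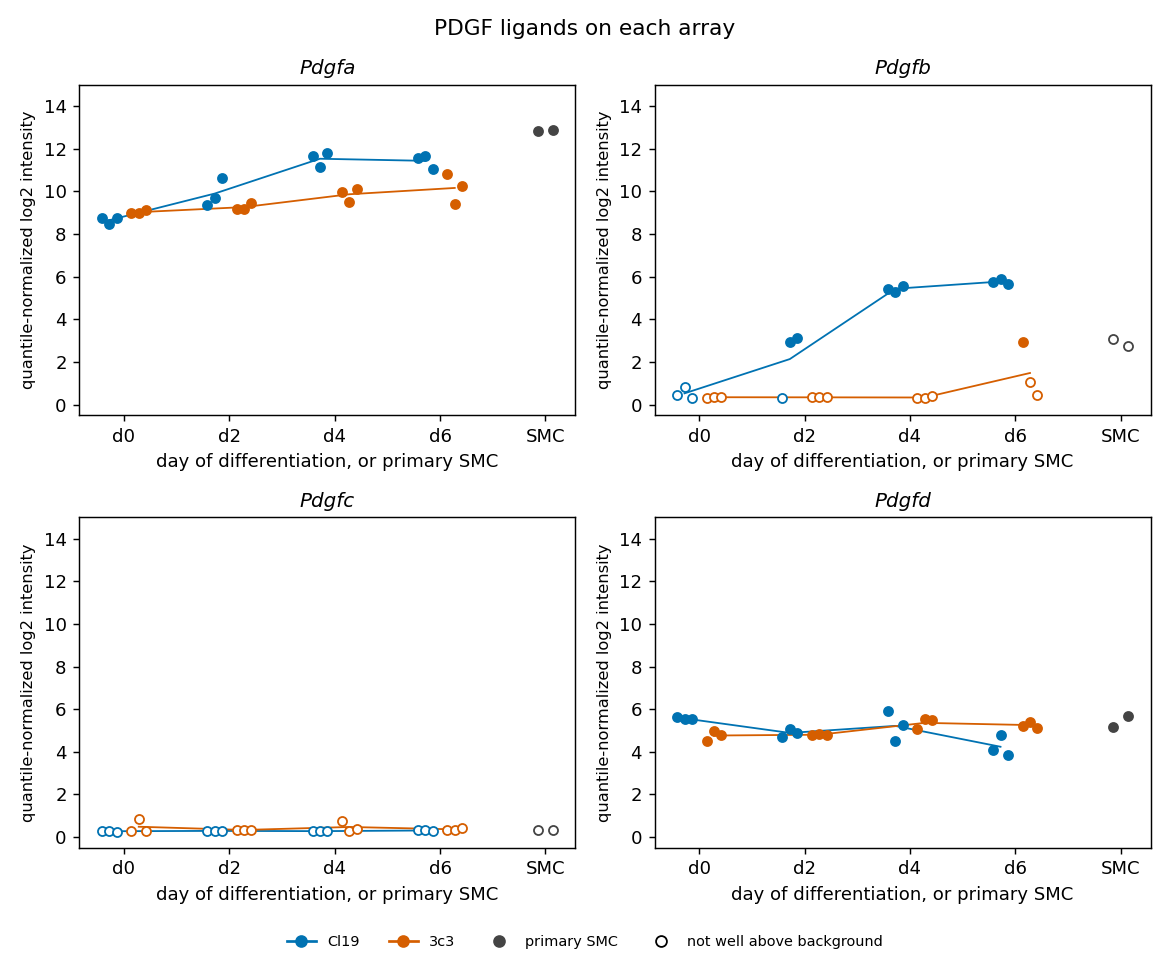
Quantile-normalized log2 intensity (vertical axis) of the 4 ligand genes on each array, by day and line, with primary SMC at the right; lines join group means, and open points are not well above background. *Pdgfa* climbs further in Cl19 than in 3c3, *Pdgfb* has filled points mainly in Cl19 from d2 on, *Pdgfc* has none, and *Pdgfd* ends lower in Cl19 and higher in 3c3 than it began.

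Counted over the family, 5 of the 6 genes were tested, those with a probe well above background on all arrays of at least 1 group. *Pdgfb* passed this filter only through Cl19 on d4 and d6 and *Pdgfrb* only through primary SMC, the groups where they are high, so that their calls there are partly set by the filter and the counts below carry no support. From d0 to d6 in Cl19, 2 were higher (*Pdgfa*, *Pdgfb*), where 22% of all 24442 tested probes were called higher, and 2 were lower (*Pdgfd*, *Pdgfra*), where 30.3% were called lower. In 3c3, 1 was higher (*Pdgfa*, background 19.7%) and 2 were lower (*Pdgfra* and the dim *Pdgfrb*, background 28.6%). On d2 the counts were 2 higher and 1 lower in Cl19 (background 11.2% and 11.5%) and 0 higher and 2 lower in 3c3 (background 9.8% and 9.27%), the latter again with *Pdgfrb*, which was not well above background. In the F-test over all days 4 passed in Cl19 (background 54.3%) and 3 in 3c3 (background 50%). The d6 change differed between the lines for 4 (background 17.4%), *Pdgfrb* among them.

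Between d2 and d4, 3 were called in Cl19 (background 20.6%, and again 3 with a background of 11.9% without the array that stands apart) and 1, the dim *Pdgfrb*, in 3c3 (background 8.71%). Between d4 and d6, 1 was called in Cl19 (*Pdgfd*, background 6.95%) and 1 in 3c3 (*Pdgfra*, background 10.5%). On d0 the lines differed for 1, the dim *Pdgfrb* (background 3.07%). With 5 genes such counts cannot be set apart from the background and are no result about the family. Without the Cl19 d2 array that stands apart, the count from d0 to d2 in Cl19 was again 3 (share called 24.9%).

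**Figure D3:**
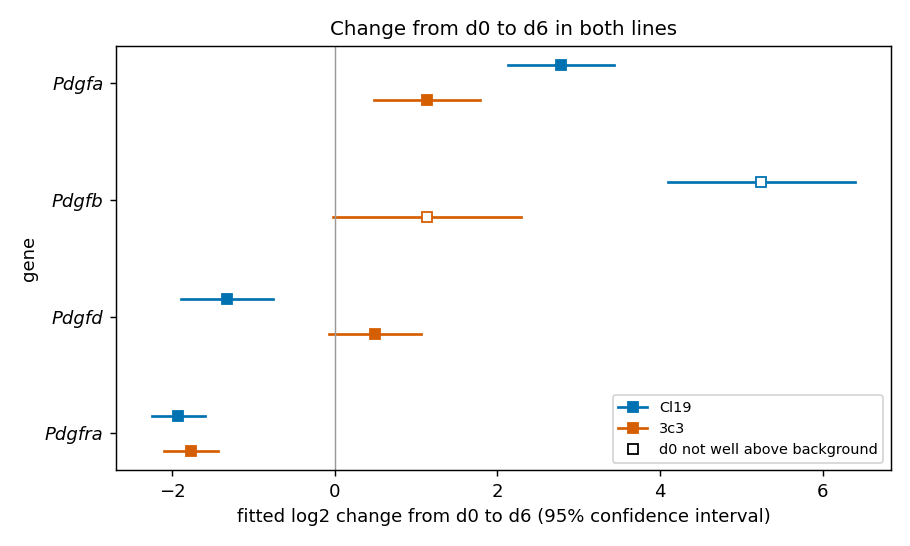
Fitted log2 change from d0 to d6 (horizontal axis) with its 95% confidence interval for the 4 genes measured in rMAPCs, in Cl19 and 3c3; open squares have no d0 array well above background. The intervals of the lines lie apart for *Pdgfa*, *Pdgfb* and *Pdgfd* and overlap for *Pdgfra*.

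Against primary SMC, 5 of 5 tested genes differed from Cl19 on d6 (background 71.4%) and 4 of 5 from 3c3 on d6 (background 71.5%). *Pdgfra* was 2.25-fold lower in primary SMC than in Cl19 on d6 (adjusted p = 6.6e-06) and 2.35-fold lower than in 3c3 (adjusted p = 3.3e-06). *Pdgfa* read 12.82 and 12.88 in primary SMC, above every rMAPC array, 2.66-fold higher than in Cl19 on d6 (adjusted p = 0.0013) and 6.43-fold higher than in 3c3 (adjusted p = 1.0e-06). In the authors' table, where the median of all tested probes lies 2.17 lower in primary SMC than in Cl19 on d6, *Pdgfa* was lower in primary SMC by 0.36 on the log2 scale (difference -0.36, adjusted p = 0.35), which is higher relative to that median.

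The *Pdgfd* probes disagreed on primary SMC. The brighter probe read 5.14 and 5.68, 1.17 above Cl19 on d6 (adjusted p = 0.0019), while the other read 3.15 and 2.53, not well above background, and lay 1.09 below Cl19 (difference -1.09, adjusted p = 0.017). No direction is given for *Pdgfd* in primary SMC. The call of *Pdgfb* between primary SMC and 3c3 on d6 (adjusted p = 0.043) rests on 1 of 5 arrays well above background.

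In the order of group means, *Pdgfra* ran from d0 of both lines, which overlapped, over d2 of both, which overlapped, to d4 and d6, whose neighbours overlapped, and ended with primary SMC apart. *Pdgfa* ran from primary SMC over d4 and d6 of Cl19, which overlapped with each other only, to d6 of 3c3, d2 of Cl19 and d4 of 3c3, which overlapped in turn, and then to d2 and d0 of 3c3 and d0 of Cl19. No gap separated neighbours for *Pdgfd*, where each group overlapped the next from Cl19 d0 (mean 5.57) to Cl19 d6 (mean 4.24).

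As to genes of like pattern, the 3 with the highest Pearson correlation to each gene were taken over the 24 rMAPC arrays among 11399 named genes, a description in which arrays share day, line and slide. *Pdgfa* was followed most closely by *Lnx1*, a ubiquitin ligase (0.97), *Cldn3*, a tight junction claudin (0.96), and *Bin1*, an adaptor of membrane curvature (0.96). *Pdgfb* was followed by *Ggt5*, a glutamyl transferase (0.98), *Hrh1*, the histamine H1 receptor (0.98), and *Eef2k*, the kinase of elongation factor 2 (0.97). Only 9 of the 24 arrays had *Pdgfb* well above background, so its correlations rest in part on dim values. *Pdgfra* was followed by *RGD1309198* (0.97), *Kbtbd8*, a ubiquitin ligase adaptor (0.97), and *Hspa14*, a ribosome-bound chaperone (0.97). The likeness to *Pdgfd* was weaker, with *Dst*, a cytoskeletal linker (0.76), *Aga*, a lysosomal hydrolase (0.75), and *Ppp1r14c*, a phosphatase inhibitor (0.75).

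*Pdgfa* and *Pdgfb* rose together in Cl19, and their promoters are therefore shown, as the 250 bases before the annotated start of each gene from RefSeq (GRCr8). Capitals mark GGGCGG or its reverse complement CCGCCC, the core of a GC box.
Pdgfa (chr12:20759116-20759365, plus strand): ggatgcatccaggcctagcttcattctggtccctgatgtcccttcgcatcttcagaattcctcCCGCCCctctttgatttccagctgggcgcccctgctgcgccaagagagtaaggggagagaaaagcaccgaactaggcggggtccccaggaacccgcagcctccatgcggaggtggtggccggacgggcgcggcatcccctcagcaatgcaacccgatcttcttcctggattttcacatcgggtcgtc
Pdgfb (chr7:113438344-113438593, minus strand): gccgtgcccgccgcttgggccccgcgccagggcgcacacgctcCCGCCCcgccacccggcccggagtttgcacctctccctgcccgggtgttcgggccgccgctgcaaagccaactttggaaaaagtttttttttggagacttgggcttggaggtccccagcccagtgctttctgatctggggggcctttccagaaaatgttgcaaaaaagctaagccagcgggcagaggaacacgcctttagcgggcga
Each holds 1 match, as does the promoter of *Pdgfd*, which fell in Cl19, while those of *Pdgfc* and *Pdgfra* hold 0, and 30.5% of all 33469 promoters of this length hold at least 1. TATAAA or its reverse complement TTTATA, which 12.9% of all promoters hold, is in none of the 5. The GC content was 60.8% for *Pdgfa* and 63.6% for *Pdgfb*, against a median of 51.2%. It was 61.6% for *Pdgfd*, 56.0% for *Pdgfc* and 47.2% for *Pdgfra*, so a high GC content was not particular to the genes that rose. These matches are a description of the letters in the window.

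Of 73 listed genes, of the PDGF pathway and of related ligand and receptor families, 70 had a probe and 67 were tested. The related families (VEGF, KIT and CSF1) make up 12 of the tested genes and are described at the end. From d0 to d6 in Cl19, 31 of the 67 were higher and 8 were lower (median change 0.47), with 5 and 1 of these in the related families. In 3c3 the counts over the 67 were 25 and 5 (median change 0.26), with 7 and 1 in the related families. Over all tested probes the medians were -0.20 and -0.21, and the share called was 22% higher with 30.3% lower in Cl19, against 19.7% and 28.6% in 3c3. These shares are the background of the counts for each list, which are given as descriptions.

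Of the proteases and convertases that process PDGF chains, all 5 tested were called higher in Cl19, against 22% of all probes (median 4.78, or 3.73 with dim arrays set to the lowest signal well above background) and 4 of 5 in 3c3, against 19.7% (median 2.70 both ways). *Plau*, which encodes the urokinase that can activate PDGF-D, was not well above background on d0. Its d6 level exceeded that at least 123-fold in Cl19 (adjusted p = 1.2e-13) and at least 179-fold in 3c3 (adjusted p = 4.5e-14). These p-values are those of the fitted difference, not of the bounds. The *Plau* probe passed the filter only through differentiated rMAPC groups. Its calls, and its place in the counts of this list, are therefore partly set by that filter. *Plat*, which encodes the tissue plasminogen activator that can activate PDGF-C, rose 126-fold in Cl19, and 96.0-fold in 3c3, where 2 of 3 d0 arrays were well above background. *St14*, which encodes matriptase, rose by 2.34 and 2.70 on the log2 scale, and *Furin*, the convertase of the A and B chains, by 0.79 and 0.85. *Pcsk6*, a further convertase, rose in Cl19 (log2 4.78, 1 of 3 d0 arrays well above background) and did not pass in 3c3 (log2 -0.55, adjusted p = 0.62). *Pcsk5* was not well above background and was not tested. Neither *Plau* nor *St14* was well above background in primary SMC.

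Of 6 binding proteins and co-receptors, Cl19 had 3 higher and 1 lower, and 3c3 had 1 higher and 0 lower. *Lrp1*, a co-receptor of PDGFRβ, passed in both, with 2.90 and 1.52 on the log2 scale. The Cl19 calls included, chosen after their values were seen, *A2m*, a plasma protein that binds PDGF (log2 6.96, 1 of 3 d0 arrays well above background), *Cspg4*, which encodes the pericyte proteoglycan NG2 and also stands in the fibroblast and pericyte list (log2 3.01, 1 of 3), and *Sparc*, which encodes a matrix protein that binds PDGF-B and was lower (log2 -1.49). Their d6 changes differed between the lines (adjusted p = 3.8e-05, 0.0026 and 4.9e-04).

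Of 25 tested genes of receptor-proximal signalling, Cl19 had 9 higher and 2 lower, and 3c3 had 5 higher and 2 lower. The median changes were 0.15 and -0.0046. *Pik3cb*, a catalytic subunit of phosphoinositide 3-kinase, rose by 2.30 and 1.06, *Mapk3*, which encodes ERK1, by 1.71 and 1.12, and *Src* by 1.01 and 0.56, while *Hras* fell by 0.80 in Cl19 and by 0.62 in 3c3. *Fyn*, a kinase that docks on PDGF receptors and was singled out after its values were seen, was higher on d6 in Cl19 (at least 3.14-fold, no d0 array well above background) and lower in 3c3 (at least 1.33-fold, 2 of 3 d0 arrays and no d6 array well above background), and the d6 change differed between the lines (adjusted p = 0.0014).

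Of 11 tested negative regulators, Cl19 had 5 higher and 3 lower, and 3c3 had 4 higher and 2 lower. The phosphatase genes *Dusp1* (log2 5.17 and 3.59) and *Dusp6* (log2 4.09 and 4.72), whose products inactivate MAP kinases, rose, whereas *Socs3*, which encodes an inhibitor of cytokine receptors, fell by 4.34 in Cl19 and by 3.03 in 3c3, and *Spry2*, which encodes an inhibitor of Ras signalling, fell 3.34-fold and 2.14-fold. Of 8 immediate targets of growth factor signalling, Cl19 had 4 higher and 1 lower, and 3c3 had 4 higher and 0 lower. *Ier3* rose by 2.60 and 2.77, *Junb* by 2.08 and 1.62, and *Jun* by 1.54 and 1.55.

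**Figure D4:**
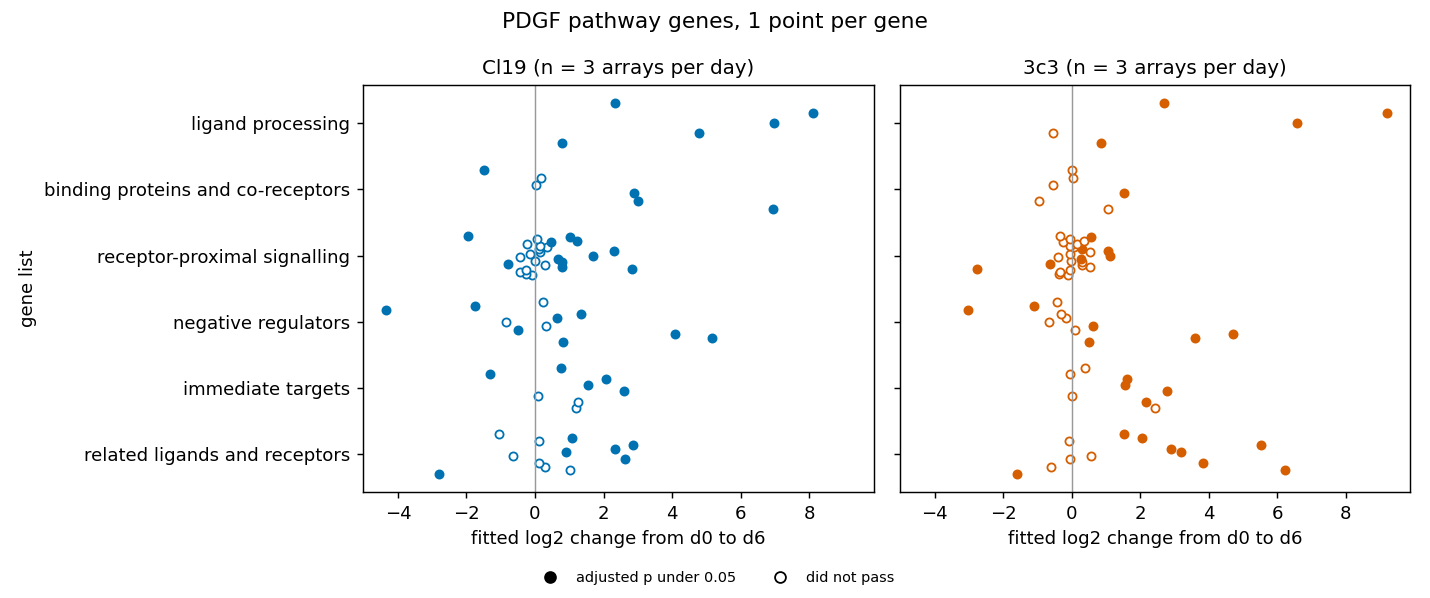
Fitted log2 change from d0 to d6 (horizontal axis) of 67 tested genes of the PDGF pathway and of related ligand and receptor families, 1 point per gene, by list (vertical axis) and line. Filled points had an adjusted p under 0.05. In the ligand processing list all 5 points are filled and above 0 in Cl19, and 4 of 5 are in 3c3.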

How the data were processed

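RNA of Cl19 and 3c3 rMAPCs (d0, d2, d4 and d6, 3 arrays each) and of primary SMC (2 arrays) was labelled with Cy3 and hybridised to Agilent rat arrays. The authors deposited scanner intensity per feature from Agilent Feature Extraction 10.1.1.1, already corrected for background, and a table of log2 values that equal the log2 of that intensity to within 5.2e-14, without normalisation between arrays. Probe coordinates are on rn4.

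Here log2 intensities of 43379 gene features were quantile-normalised over 26 arrays, which removes a change shared by most genes. Outlier features were then dropped (none of the 7 probes lost one), and features of a probe averaged. The test (limma 3.58.1, R 4.3.3, all 9 groups in a single fit, Benjamini-Hochberg threshold 0.05) took the 24442 probes that some group measured on all of its arrays. The precision is limited by the number of arrays. A fold with 1 side not well above background on all its arrays is a bound against the lowest signal well above background (log2 1.52 to 4.22, by array). The p-value beside such a bound is that of the fitted difference. The fit was tested on simulated data.

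The genes, lists and alternatives were chosen with earlier results of these data known. Genes named from the lists of the pathway and related families are at most 4 per list, those with the largest d6 change averaged over the lines that passed in both, plus members needed to explain a count. Replicate numbers pair arrays by slide, since the scanner files place a replicate's 4 days on 1 slide. Deviations from group means correlated by over 0.1 in 18 of 18 pairs in 3c3, 16 of 18 in Cl19 (lowest 0.061) and 6 of 6 pairs of d0 with d6. The alternatives were other scalings, background corrections, filters, probes and fits, leaving out arrays, and the methods' t-test and area method. Python 3.11.15 and matplotlib drew the figures.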

Additional observations from a re-analysis of the deposited data

Results flagged for a closer look

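The change from d0 to d6 differed between the lines for 4 genes by the test of the difference itself. On the log2 scale the change in Cl19 exceeded that in 3c3 by 1.65 for *Pdgfa* and by 4.11 for *Pdgfb*. For *Pdgfd* the change in Cl19 minus that in 3c3 was -1.82. For *Pdgfrb* the same difference was 1.60, between values none of which was well above background.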

How the results depend on the processing

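Calls of *Pdgfra*, *Pdgfa* and *Pdgfb* from d0 to d6 in Cl19, of *Pdgfd* in Cl19 and of *Pdgfra* and *Pdgfa* in 3c3 kept their direction and their side of the threshold under all alternatives that refitted the change (15 each in Cl19, 16 each in 3c3). The methods' t-test and area method are not among these. In the t-test with Benjamini-Hochberg adjustment the d6 change of *Pdgfa* in 3c3 did not pass. The difference between the lines kept its call in 22 of 22 for *Pdgfb* and *Pdgfd* and in 21 of 22 for *Pdgfa*. Most of these alternatives kept the filter that *Pdgfb* passed only through Cl19 on d4 and d6, which partly sets its calls. The replicate block changed none of the d6 calls in either line (for example *Pdgfa* in 3c3, adjusted p = 0.0047), and as a random block it took the call of *Pdgfb* between primary SMC and 3c3 on d6 (adjusted p = 0.088). The count of genes changed from d0 to d2 in 3c3 was 1 in place of 2 with 75th percentile scaling, normexp, the authors' table, the floor and the methods' t-test with Benjamini-Hochberg adjustment, *Pdgfra* in each. In these settings 18.5% to 21.1% of all tested probes were called, against 19.1% in the fit used above. The count that differed between the lines on d0 was 0 in place of 1 in the same 5 settings (share called 2.68% to 3.77%, against 3.07%). With the unadjusted t-test it was 3 (share called 17.5%). The count changed from d2 to d4 or from d4 to d6 was 3 in place of 5 with 75th percentile scaling, normexp, the authors' table, no filter, fits of the compared groups only, and without the slide of higher background. Over these settings the share called ran from 17.1% to 36.6%, against 33.5%. The methods' area method called 2 in place of 4 over time in Cl19 (*Pdgfa*, *Pdgfb*) and 0 in place of 3 in 3c3. Its share over all 41012 gene probes was 9.66% in Cl19 and 4.04% in 3c3, against 54.3% and 50% of the tested probes in the F-test. The lower counts are therefore no result about these genes. Leaving out 1 array gave 1 to 3 genes changed from d0 to d2 in Cl19 (share called 15.5% to 24.9%, against 22.6%), with 1 without d2 replicate 3 (share called 15.5%).

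Differences that turned their direction were those of primary SMC. In the authors' table they were -0.36 for *Pdgfa* and -1.11 for *Pdgfd* against Cl19 on d6, and -0.65 for *Pdgfb* and -1.97 for *Pdgfd* against 3c3. That of *Pdgfb* against 3c3 was -0.036 with normexp. That of *Pdgfd* against 3c3 was -0.99 over both probes, -0.11 without SMC replicate 2 and 0.42 without SMC replicate 1. The median over all tested probes between primary SMC and Cl19 on d6 was -0.13, against -2.17 in the authors' table and 0.21 with 75th percentile scaling, and the d6 change in Cl19 had a median of -0.20, against 0.10 in the authors' table. Beyond these shifts the cause was not tested. Dim probes (*Pdgfc*, *Pdgfrb* in rMAPCs, *Pdgfb* before d4) limit what can be said of low levels.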

Other observations

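Ligands and receptors of related families (VEGF, KIT and CSF1) were listed beside the PDGF family. From d0 to d6, Cl19 had 5 of 12 tested genes higher and 1 lower (median change 0.59), and 3c3 had 7 higher and 1 lower (median change 1.80). The share of all tested probes called was 22% higher with 30.3% lower in Cl19, against 19.7% and 28.6% in 3c3. *Pgf*, which encodes placental growth factor, rose by 2.85 in Cl19 and 5.54 in 3c3 (2 of 3 d0 arrays of 3c3 well above background), and *Kitl*, which encodes the ligand of KIT, by 2.34 and 2.89. *Kit* itself rose by 0.90 and 3.19. *Csf1*, which encodes the ligand of the CSF1 receptor, fell by 2.80 in Cl19 and by 1.61 in 3c3.

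The d6 change differed between the lines for 6 of the 12, against 17.4% of all tested probes. Singled out after their values were seen, *Flt1*, which encodes a VEGF receptor, rose by 3.83 in 3c3 (0.12 in Cl19, adjusted p = 0.75, difference -3.72 with an adjusted p of 1.3e-06), and *Csf1r* rose by 6.24 in 3c3 (1.03 in Cl19, adjusted p = 0.14, difference -5.20 with an adjusted p of 1.1e-04). *Csf1r* also stands in the list of 4 blood and macrophage markers. Of the other 3, *Cd68* had a mean of 6.65 on d0 and 6.87 on d6 in 3c3, and *Ptprc* and *Itgam* were not well above background on any of these arrays.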
